A study of Mus musculus with 6 samples.

Results

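B1 elements are the short interspersed elements (SINEs) of the mouse genome that descend from 7SL RNA. Here they were taken as every annotated feature of the files that belongs to the Alu family of SINEs, the family under which B1 is listed. Of 1753368 features with a read in any of the 6 libraries, 138357 were B1 copies, and 168645 were copies of other SINE families. The copies fell into 16 subfamilies, and the reads of all copies of a subfamily were summed. Between 1671 (PB1) and 35300 (B1_Mus1) copies made up a summed subfamily, apart from FAM, the fossil Alu monomer, which had 7 copies and at most 3 reads in a library.

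7SL RNA is the RNA scaffold of the signal recognition particle, which directs the synthesis of secreted and membrane proteins to the endoplasmic reticulum. B1 arose from a shortened copy of the 7SL gene, carries its internal RNA polymerase III promoter, and was spread through the genome by the reverse transcriptase of LINE-1 elements. Most copies now lie inside or near genes, so that B1 sequence is found both in short RNA polymerase III transcripts and within introns and untranslated regions of longer ones. The subfamily names follow age. PB1 (proto-B1) and B1F elements are the oldest, B1_Mur elements are shared by murid rodents, and B1_Mus and B1_Mm elements belong to the mouse lineage. Gtsf1, also called Asterix, carries zinc fingers and acts in the piRNA pathway, which silences transposable elements in the germ line.

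The libraries came from an eCLIP experiment on P19 cells, a mouse embryonal carcinoma line, which asked what RNA is bound by mouse Gtsf1. All cells, those of the inputs and those without crosslinking included, had been transfected with mouse Gtsf1 carrying a TEV-Strep tag at its C terminus in the vector pEF, driven by the EF-1alpha promoter; no library of untransfected cells or of an untagged protein was used here. Crosslinked cells were exposed to ultraviolet light at 254 nm, which joins RNA to bound protein, and gave 2 pull-down and 2 input libraries, called UV libraries below. Non-crosslinked cells gave 1 pull-down and 1 input library, called no-UV libraries, so that ratios between these have no replicate check. The labels do not say whether the replicates came from separate cultures, and p-values measure only the spread between these libraries.

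The libraries held between 13168593 and 18418166 reads, of which between 6.99% and 14.4% had no annotation. Values are expected counts, in which a read matching several copies was split into equal fractions, and RPM, the same counts per 1000000 reads of a library. Exons of the transfected Gtsf1 gave 44.4 and 42.3 RPM in the UV inputs, 103.6 and 239.8 RPM in the UV pull-downs, 21.8 RPM in the no-UV input and 15.4 RPM in the no-UV pull-down. All 6 markers of embryonal carcinoma cells were above 0 in every library, with summed levels of 45.9 to 88.1 RPM. The 5 markers of other cell types summed to between 2.21 and 3.67 RPM; 2 of them were above 0 in every library, and Alb was at 0 in all 6. Intervals quoted below are 95% intervals for the counting error alone; PCR copies of one molecule can make the true error larger.

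B1 elements as a whole took a slightly larger share of the pull-downs than of the inputs. The ratio of the shares was similar with and without crosslinking, while the difference was 0.0435 percentage points with and 0.0130 without it. They held 0.194% of all reads in UV input 1 (Wilson interval 0.192 to 0.196%) and 0.195% in UV input 2 (0.193 to 0.197%). The share was 0.244% in UV pull-down 1 (0.242 to 0.247%) and 0.231% in UV pull-down 2 (0.229 to 0.233%). It was 0.0725% in the no-UV input (0.0711 to 0.0739%) and 0.0855% in the no-UV pull-down (0.0840 to 0.0871%). Both UV pull-downs thus lay above both UV inputs, and the no-UV libraries lay far below all 4. The mean share was 0.238 ± 0.00944% in the UV pull-downs and 0.194 ± 0.000844% in the UV inputs (SD over 2 libraries each), a log2 ratio of 0.29. The log2 ratio of the no-UV pull-down over its input was 0.24 (fold 1.18, interval 1.15 to 1.21). The exact two-sided permutation test over the 4 UV libraries gave p = 0.33, the smallest that this design allows (0.417 adjusted over the 5 family measures compared).

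The larger contrast was between the inputs. B1 was higher in the UV inputs than in the no-UV input by 1.42 on the log2 scale, while the other SINE families together were higher by 1.39 and 7SL RNA was lower, with a log2 ratio of -0.61. The median of 38901 features was 0.84. Among the B1 subfamilies this log2 ratio ranged from 0.57 for PB1D11 to 2.46 for PB1D7. With 1 no-UV input, crosslinking and the library cannot be told apart here. rRNA made up 69.7 and 70.1% of the no-UV libraries and 58.2 to 60.6% of the UV libraries. Its part in the contrast was not tested. With rRNA reads left out of the total, the order was the same and the relative gap between the inputs was smaller. B1 then held 0.476 and 0.495% of the reads in the UV inputs, 0.593 and 0.553% in the UV pull-downs, 0.239% in the no-UV input and 0.286% in the no-UV pull-down.

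Relative to the other SINE families, most of which derive from tRNA genes, B1 was a little less represented in the pull-downs. It made up 35.0 and 36.3% of all SINE reads in the UV inputs, 33.5 and 32.4% in the UV pull-downs, 35.2% in the no-UV input and 30.3% in the no-UV pull-down. The log2 ratio of B1 to other SINE reads was lower in the UV pull-downs than in the UV inputs by 0.18, with a difference of -0.33 without crosslinking, and the groups did not overlap (exact permutation p = 0.33). Without the 10 best covered copies of each side, the difference with crosslinking was -0.05. Against B2, a tRNA-derived family of rodents, the difference was -0.03 with crosslinking, where the libraries overlapped (exact permutation p = 1), and 0.16 without. Against ID elements, which derive from a tRNA-like neuronal RNA gene, it was -0.96 with and -3.07 without crosslinking. Among the families, B2 had the pull-down ratio nearest to that of B1, with a log2 ratio of 0.32 with and 0.08 without crosslinking; B4 had 0.52 and 0.84, MIR 0.57 and 0.96, and ID 1.25 and 3.31.

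**Figure D1:**
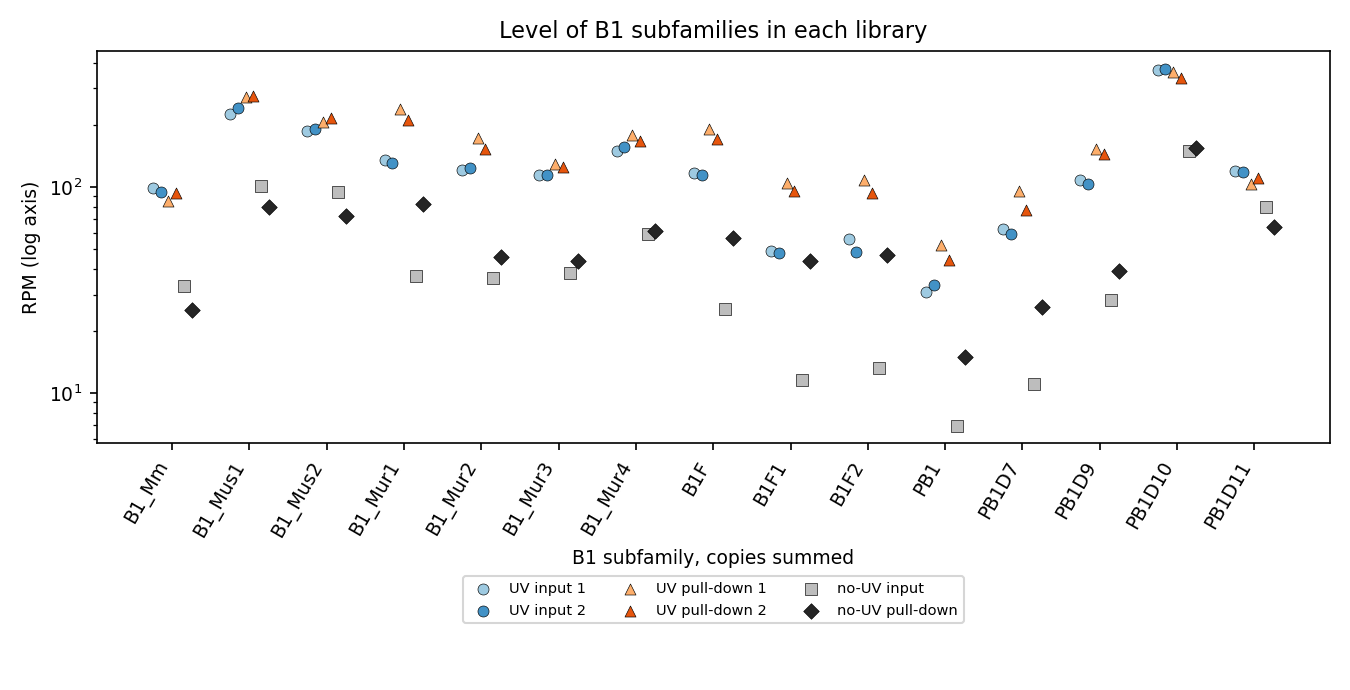
RPM (log axis) of the 15 tested B1 subfamilies in each of the 6 libraries, each point 1 library. Circles are UV inputs, triangles UV pull-downs, the square the no-UV input and the diamond the no-UV pull-down; in 12 subfamilies both triangles lie above both circles.

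The subfamilies did not move together. Of the 15 subfamilies with a mean of at least 1 RPM in the UV libraries, 4 were higher in the UV pull-down than in the input by edgeR's quasi-likelihood test at a Benjamini-Hochberg adjusted p under 0.05, and 0 were lower. The 4 were B1F1, B1F2, B1F and B1_Mur1. In the whole table of 39069 features, with copies of every transposable element subfamily summed, 5.33% were called higher and 2.71% lower. At an unadjusted p under 0.05 the count among B1 subfamilies was 8 (21.8% of all features). The median edgeR log2 ratio of the 15 was 0.50, against -0.21 over all features tested. Both pull-downs lay above both inputs in 12 of the 15 (10.2% of all features) and below both in 3 (57.8%). Leaving out 1 library lowered the count of 4, to 1 without UV input 2, to 2 without UV input 1 or UV pull-down 1, and to 3 without UV pull-down 2; B1F1 was called in each of these fits. With TMM scaling factors, which moved the median of all features to -0.0035, the count was 7. With same-numbered libraries taken as a replicate block it was 2, B1F1 and B1F2.

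All 3 subfamilies of the B1F type, among the oldest B1 elements, were higher in the UV pull-downs, and B1F1 and B1F2 had the largest ratios of the 15. B1F1 had 48.8 and 47.8 RPM in the UV inputs, 104 and 95.4 RPM in the UV pull-downs, 11.6 RPM in the no-UV input and 43.9 RPM in the no-UV pull-down. Each pull-down lay well above the input of its condition, and the relative gap was wider in the pair without crosslinking. The edgeR log2 ratio was 1.14 (SE 0.16, adjusted p = 0.00786), and the no-UV fold was 3.77 (interval 3.16 to 4.50). B1F2 had 56.1 and 48.4 RPM in the UV inputs, 108 and 93.4 RPM in the UV pull-downs, and 13.2 and 46.7 RPM in the no-UV input and pull-down. The edgeR log2 ratio was 1.04 (SE 0.17, adjusted p = 0.0160) and the no-UV fold was 3.55 (3.01 to 4.21); the call was lost without UV input 2 (adjusted p = 0.0608). B1F, the largest of the 3, gave 117 and 114 RPM in the UV inputs against 190 and 171 RPM in the UV pull-downs, and 25.5 against 56.6 RPM without crosslinking. Its edgeR log2 ratio was 0.73 (SE 0.16, adjusted p = 0.0438), and this call was lost whenever 1 of the 4 UV libraries was left out (adjusted p of 0.0639 to 0.182).

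B1_Mur elements, of intermediate age, held 1 of the 4 calls. B1_Mur1 had 135 and 130 RPM in the UV inputs, 238 and 212 RPM in the UV pull-downs, 36.9 RPM in the no-UV input and 82.6 RPM in the no-UV pull-down. The pull-downs were again above the inputs in both conditions. The edgeR log2 ratio was 0.85 (SE 0.16, adjusted p = 0.0275); it was not called without UV input 1, UV input 2 or UV pull-down 1 (adjusted p of 0.0671 to 0.0908). B1_Mur2 had 120 and 124 RPM against 172 and 153 RPM with crosslinking, an edgeR log2 ratio of 0.50 that did not pass the test (adjusted p = 0.135). B1_Mur3 and B1_Mur4 had edgeR log2 ratios of 0.24 and 0.27 (adjusted p of 0.424 and 0.388). Without crosslinking, the log2 ratios of RPM of B1_Mur2, B1_Mur3 and B1_Mur4 were 0.33, 0.18 and 0.05, and that of B1_Mur1 was 1.16.

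The youngest elements, B1_Mm, B1_Mus1 and B1_Mus2, stayed close to their inputs with crosslinking and below them without it, and none of the 3 passed the test. B1_Mus1 had 224 and 242 RPM in the UV inputs and 271 and 275 RPM in the UV pull-downs, but 101 RPM in the no-UV input and 79.8 RPM in the no-UV pull-down. B1_Mus2 had 186 and 190 RPM against 206 and 216 RPM with crosslinking, and 94.2 against 71.9 RPM without. Both subfamilies therefore lay above the input in the UV libraries and below it in the no-UV libraries. The no-UV folds were 0.789 for B1_Mus1 (0.728 to 0.855) and 0.763 for B1_Mus2 (0.701 to 0.830), and the edgeR log2 ratios with crosslinking were 0.32 and 0.26 (adjusted p of 0.317 and 0.407). B1_Mm had 98.2 and 94.5 RPM in the UV inputs, 85.0 and 93.4 RPM in the UV pull-downs, and 33.0 and 25.4 RPM in the no-UV input and pull-down. Its edgeR log2 ratio was -0.02 (adjusted p = 0.956).

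The PB1 subfamilies, from the proto-B1 stage, split by member. PB1, PB1D7 and PB1D9 had edgeR log2 ratios of 0.68, 0.59 and 0.58, none of which passed the test (adjusted p of 0.0652, 0.103 and 0.0866); with TMM factors all 3 did. PB1 had 30.8 and 33.3 RPM in the UV inputs, 52.5 and 44.0 RPM in the UV pull-downs, and 6.95 and 15.0 RPM in the no-UV input and pull-down. PB1D7 had 62.7 and 59.0 RPM against 94.95 and 77.5 RPM, and 11.1 against 26.1 RPM. In both, each pull-down exceeded every input made under the same condition. PB1D10, the subfamily with the most reads, stayed near its inputs, with 369.5 and 374.0 RPM in the UV inputs, 360.8 and 335.6 RPM in the UV pull-downs, and 149.7 and 154.4 RPM in the no-UV input and pull-down. PB1D11 had 119 and 117 RPM against 103 and 110 RPM, and 79.9 against 63.6 RPM. PB1D10 and PB1D11 had edgeR log2 ratios of -0.0038 and -0.06 (adjusted p of 0.991 and 0.859). The small negative ratios of PB1D10, PB1D11 and B1_Mm became 0.20, 0.15 and 0.19 with TMM factors, so that their direction depended on the scaling. It also depended on single copies. Without the best covered copy of each subfamily, the ratios were 0.27, 0.48 and 0.34, none of which passed the test.

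**Figure D2:**
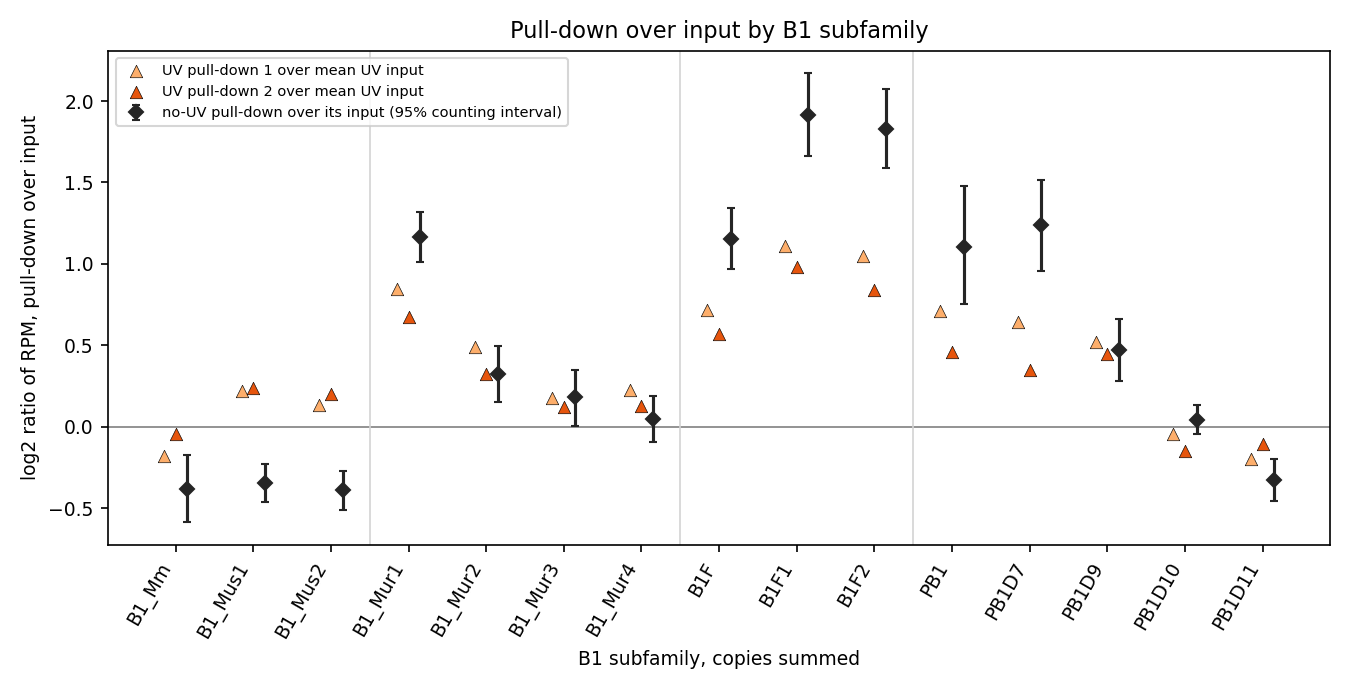
Log2 ratio of RPM, pull-down over input, for each B1 subfamily, ordered from young (left) to old names (right). Triangles show each UV pull-down over the mean UV input, and diamonds show the 1 no-UV pair with its 95% counting interval. B1F1 and B1F2 reach the highest ratios in both conditions, and the B1_Mm, B1_Mus and PB1D11 diamonds lie below 0.

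The ranking of the subfamilies was close to the same with and without crosslinking. The no-UV pull-down exceeded its input in 11 of the 15 subfamilies (15.0% of all features tested; 85.0% were below). The counting interval of the fold lay wholly above 1 in 9 subfamilies (6.17% of all features) and wholly below 1 in 4 (31.6%). Across the 15 subfamilies, the log2 ratios with and without crosslinking had a Pearson correlation of 0.93 and a Spearman correlation of 0.88, given as a description: the subfamilies share their libraries and depth, and split reads can join them. The log2 ratio of RPM was larger with crosslinking in 7 of the 15. It ranged from -0.15 to 1.05 with crosslinking and from -0.39 to 1.92 without. Whether the 2 conditions differed was not tested for any subfamily, since the no-UV pair has no replicate. UV pull-down 1 exceeded UV pull-down 2 in 11 of the 15.

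Summed by name, B1F-type elements took a larger part of the B1 reads in every pull-down, and B1_Mm and B1_Mus elements a smaller part, than in any input of the same condition. B1F-type elements made up 11.4 and 10.8% of B1 reads in the UV inputs, 16.5 and 15.6% in the UV pull-downs, 6.93% in the no-UV input and 17.2% in the no-UV pull-down. B1_Mm and B1_Mus elements made up 26.2 and 27.0%, 23.0 and 25.3%, 31.5% and 20.7% of them in the same order. For every B1_Mm or B1_Mus read there were thus 0.436 and 0.400 B1F-type reads in the UV inputs, 0.716 and 0.616 in the UV pull-downs, 0.220 in the no-UV input and 0.831 in the no-UV pull-down. B1_Mur elements made up 26.7 and 26.9% of B1 reads in the UV inputs and 29.3 and 28.4% in the UV pull-downs. PB1 elements made up 35.6 and 35.3% against 31.2 and 30.8%. These groups of names were formed with earlier results of these data known, and their shares carry no test.

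**Figure D3:**
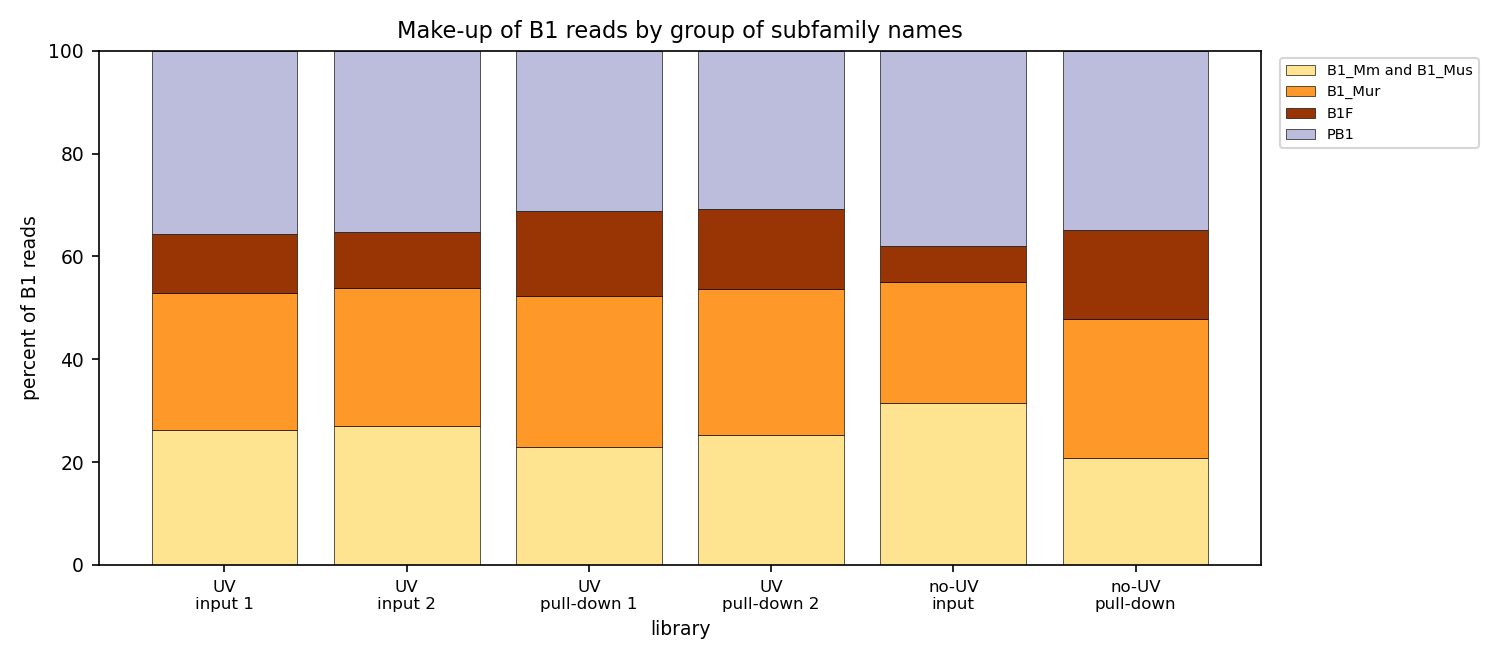
Percent of B1 reads in each library that fell on B1_Mm and B1_Mus, B1_Mur, B1F and PB1 subfamilies, each bar 1 library and the parts of a bar stacked. The B1F part is 6.93% in the no-UV input and 17.2% in the no-UV pull-down.

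The part of the reads on copies with a whole count also differed between libraries. A count that is not whole, at a tolerance of 1e-06, holds at least 1 split read, but does not show how many of its reads were split. Copies with a whole count held 95.1 and 93.3% of the B1F-type reads in the UV inputs, 77.7 and 75.5% in the UV pull-downs, 95.6% in the no-UV input and 76.6% in the no-UV pull-down. This part was smaller in all 3 pull-downs than in the inputs. For B1_Mur elements the figures were 82.9 and 82.0%, 72.2 and 71.6%, 83.3% and 75.3%, and for B1_Mm and B1_Mus elements 60.6 and 58.9%, 51.8 and 49.2%, 61.1% and 55.6%. For PB1 elements as a sum the order was turned, with 52.3 and 51.8% in the UV inputs, 67.6 and 62.9% in the UV pull-downs, 28.1% in the no-UV input and 52.7% in the no-UV pull-down. Only PB1D10 and PB1D11 had this order. PB1D10 had 38.6 and 37.8% in the UV inputs and 58.2 and 56.1% in the UV pull-downs. PB1, PB1D7 and PB1D9 had a smaller part in every pull-down than in the inputs. PB1 had 97.2 and 97.1% in the UV inputs and 83.2 and 82.7% in the UV pull-downs. The part of read placement in the ratios was not tested.

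B1 reads were spread thinly over copies. Between 10639 and 51421 copies had a read or part of a split read in a library, with 0.728 to 1.06 reads per such copy on average. Copies with under 1 read made up 21532 of 39546 in UV input 1, 31228 of 51421 in UV pull-down 1 and 5788 of 10639 in the no-UV pull-down. The counts of copies that follow include such copies. Only 304 copies had reads in all 6 libraries. Both UV pull-downs and neither UV input had reads for 6320 copies (4.57%, against 4.09% of all features with a read), and the reverse held for 4472 (3.23%, against 2.99%). These shares were near those of all features. The 10 best covered copies held 14.9 and 14.2% of the B1 reads in the UV inputs, 7.0001 and 8.04% in the UV pull-downs, 24.4% in the no-UV input and 14.7% in the no-UV pull-down. A few copies thus weighed more in every input than in the pull-down of the same condition.

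Only 51 copies, 0.0369% of those with reads, had the mean of 1 RPM over the UV libraries that the test of single features required. edgeR called 33 of the 51 higher and 5 lower in the UV pull-down (4 lower when a pair of copies with identical counts is counted once); over the 39872 single features tested, 6.41% were higher and 3.47% lower. At an unadjusted p under 0.05 the count was 44 (22.8% of all features). A copy with few input reads entered the test only through its pull-down reads, so the count of higher copies is a description and stands for no wider set of copies. This showed in the input levels: of 34 tested copies with a mean under 1 RPM in the UV inputs, 31 were higher, and of the 17 with at least 1 RPM, 2 were higher and 5 lower. Both pull-downs lay above both inputs for 36 of the 51 (10.8% of all features) and below both for 11 (57.7%). The no-UV pull-down exceeded its input for 40 of the 51 (15.7% of all features; 84.3% were below). The count of lower copies fell from 5 to 2 when UV input 1 or UV input 2 was left out, and to 1 with DESeq2. Reads of single copies are uncertain where the authors' counting split them between near-identical copies.

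**Figure D4:**
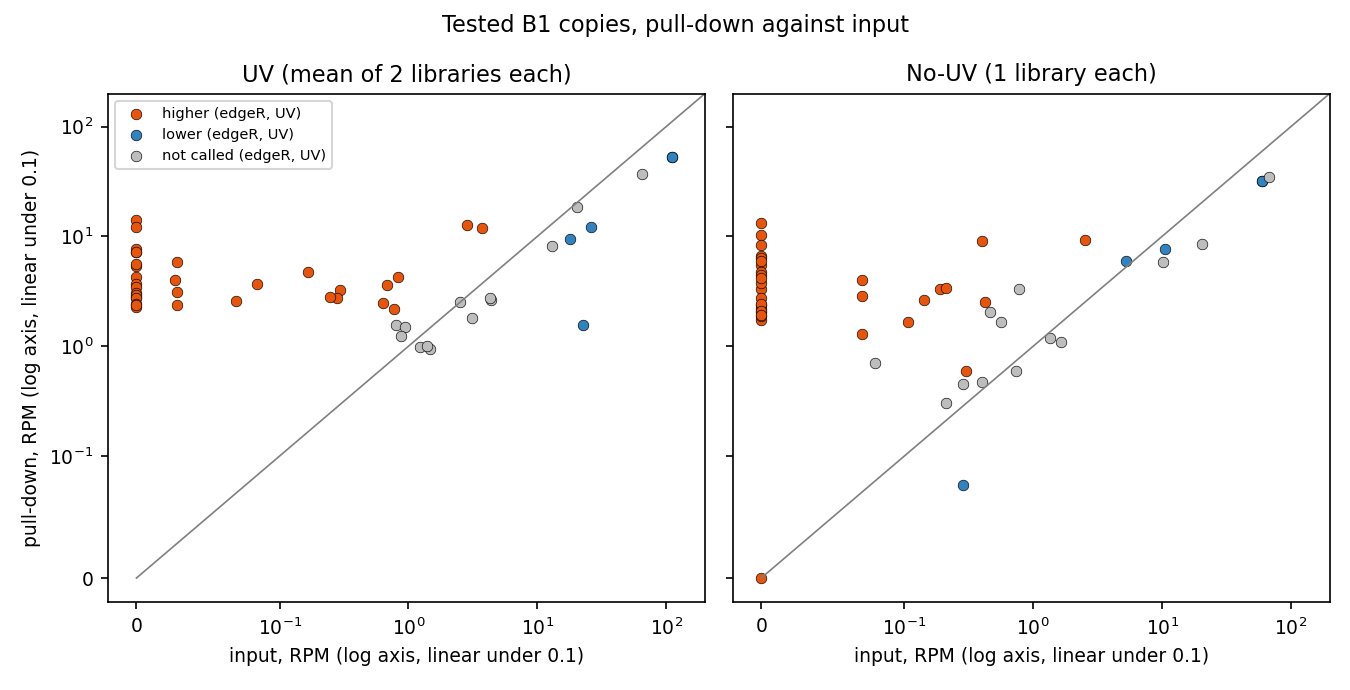
RPM in the pull-down against RPM in the input for the 51 tested B1 copies, with crosslinking (left, means of 2 libraries) and without (right, 1 library each); axes are logarithmic above 0.1 RPM and linear below it. Colours give the edgeR call in the UV libraries, and the line marks equal levels. The column of points at 0 on the left panel's input axis is 17 copies with no input read, and the point at 0 on both axes of the right panel is B1_Mur2_dup8737.

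The best covered copies were old PB1D elements that were less represented in the pull-downs. PB1D10_dup21442 and PB1D10_dup21443 had identical counts in all libraries, so that their reads were shared. Each had 109.7 and 111.7 RPM in the UV inputs, 53.9 and 51.4 RPM in the UV pull-downs, 60.0 RPM in the no-UV input and 31.8 RPM in the no-UV pull-down. The pull-down held 0.475 of the input level with and 0.530 of it without crosslinking. The edgeR log2 ratio was -0.98 (SE 0.17, adjusted p = 0.0164), and the call was lost without UV input 1 or UV input 2 (adjusted p of 0.0623 and 0.0617) and with DESeq2 (0.198). The pair made up 59.4 and 59.8% of PB1D10 reads in the UV inputs, 29.8 and 30.6% in the UV pull-downs, 80.2% in the no-UV input and 41.2% in the no-UV pull-down. PB1D11_dup6317 held a like part of its subfamily. It had 67.5 and 63.1 RPM in the UV inputs, 29.6 and 44.5 RPM in the UV pull-downs, and 67.5 and 34.5 RPM in the no-UV input and pull-down. Its edgeR log2 ratio of -0.72 did not pass the test (adjusted p = 0.133), and the SD between the UV pull-downs was 10.5 RPM (n = 2).

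Among the other well covered copies, B1_Mur3_dup9683 had 25.9 and 26.6 RPM in the UV inputs, 11.9 and 12.6 RPM in the UV pull-downs, and 10.5 and 7.73 RPM in the no-UV input and pull-down. It was lower in the UV pull-down, at a log2 ratio by edgeR of -1.01 (SE 0.16, adjusted p = 0.0105), and not called by DESeq2 (0.236). PB1D11_dup14610 had 17.7 and 17.9 RPM against 9.53 and 9.33 RPM with crosslinking, and 5.23 against 6.01 RPM without. It was lower with crosslinking (edgeR log2 ratio -0.82, SE 0.15, adjusted p = 0.0193), while the no-UV log2 ratio was 0.20; the call was lost with TMM factors (0.0528) and without UV input 1, UV input 2 or UV pull-down 2 (0.05004 to 0.0882), and DESeq2 did not call it (0.754). B1_Mur4_dup1236 and B1_Mus2_dup65370 did not pass the test, with edgeR log2 ratios of -0.59 and -0.04 (adjusted p of 0.122 and 0.916). PB1D10_dup54240 was the copy of this group with clear input reads that was higher. It had 4.01 and 3.47 RPM in the UV inputs, 11.8 and 12.2 RPM in the UV pull-downs, and 2.54 and 9.26 RPM in the no-UV input and pull-down, at a log2 ratio by edgeR of 1.77 (SE 0.16, adjusted p = 0.000870). B1F2_dup11341 was the other, with 3.44 and 2.24 RPM against 16.5 and 9.05 RPM, and 0.400 against 9.14 RPM (edgeR log2 ratio 2.26, SE 0.34, adjusted p = 0.00916).

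B1_Mm_dup39250 had nearly all its reads in the UV inputs. It had 26.7 and 18.6 RPM (467 and 342 reads) in the UV inputs, 1.12 and 2.02 RPM (18 and 32 reads) in the UV pull-downs, 0.283 RPM (4 reads) in the no-UV input and 0.0759 RPM (1 read) in the no-UV pull-down. Its counts were whole numbers in every library, so that no split read showed in them, though fractions can sum to a whole number. Its edgeR log2 ratio was -3.75 (SE 0.32, adjusted p = 0.000756), and the UV inputs exceeded the no-UV input by 6.32 on the log2 scale. It held 27.2 and 19.6% of the B1_Mm reads in the UV inputs. Without this copy, B1_Mm had 71.4 and 76.0 RPM in the UV inputs and 83.9 and 91.3 RPM in the UV pull-downs. The edgeR log2 ratio of B1_Mm was then 0.34 and did not pass the test (adjusted p = 0.290).

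A further 17 tested copies had reads in the pull-downs and none in any of the 3 inputs; 1.03% of all features tested had this pattern. Their summed level was 87.3 and 91.5 RPM in the UV pull-downs and 78.5 RPM in the no-UV pull-down, which was 3.57, 3.96 and 9.18% of the B1 reads there. The 3 sums differed little. B1F1_dup7688, the best covered of them, had 13.9, 14.2 and 13.2 RPM in UV pull-downs 1 and 2 and the no-UV pull-down. Against a floor of 3 reads in each input library, this was at least 84.0-fold higher with and at least 62.3-fold higher without crosslinking. B1F_dup11312 had 12.1, 12.5 and 10.3 RPM, at least 73.4-fold and 48.4-fold higher. B1_Mus2_dup982 had 7.54, 7.76 and 6.68 RPM, at least 45.7-fold and 31.5-fold higher. Both of these, too, differed little between the 3 pull-downs. B1F2_dup12185 had 7.07, 7.39 and 5.51 RPM (at least 43.2-fold and 25.97-fold), and B1_Mur1_dup17167 had 7.01, 7.29 and 8.28 RPM (at least 42.7-fold and 39.0-fold). With no read in any input, these copies entered the test through their pull-down reads alone, so their edgeR calls carry no weight of their own. Only 1 of the 17 had whole counts in every library, and each copy named in this paragraph held split reads. The copy from which split reads came is uncertain, and so are these levels and folds of single copies.

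Among the 17, 8 were B1_Mur copies (5 of them B1_Mur1), 5 were of the B1F type, 3 were PB1 copies and 1 was B1_Mus2. The UV pull-downs were within 1.5-fold of each other in 16. The median ratio of the no-UV pull-down to the mean UV pull-down was 0.839, and it was 0.937 over all features with this pattern. The no-UV pull-down held at least 1 RPM of 16. The exception, named after its values were seen, was B1_Mur2_dup8737, with 1.44 and 3.28 RPM in the UV pull-downs and no read in the other 4 libraries. A count of 0 in the no-UV pull-down allows a level of up to 0.228 RPM. It was also the 1 copy of the 33 higher ones whose no-UV pull-down did not exceed its input.

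**Figure D5:**
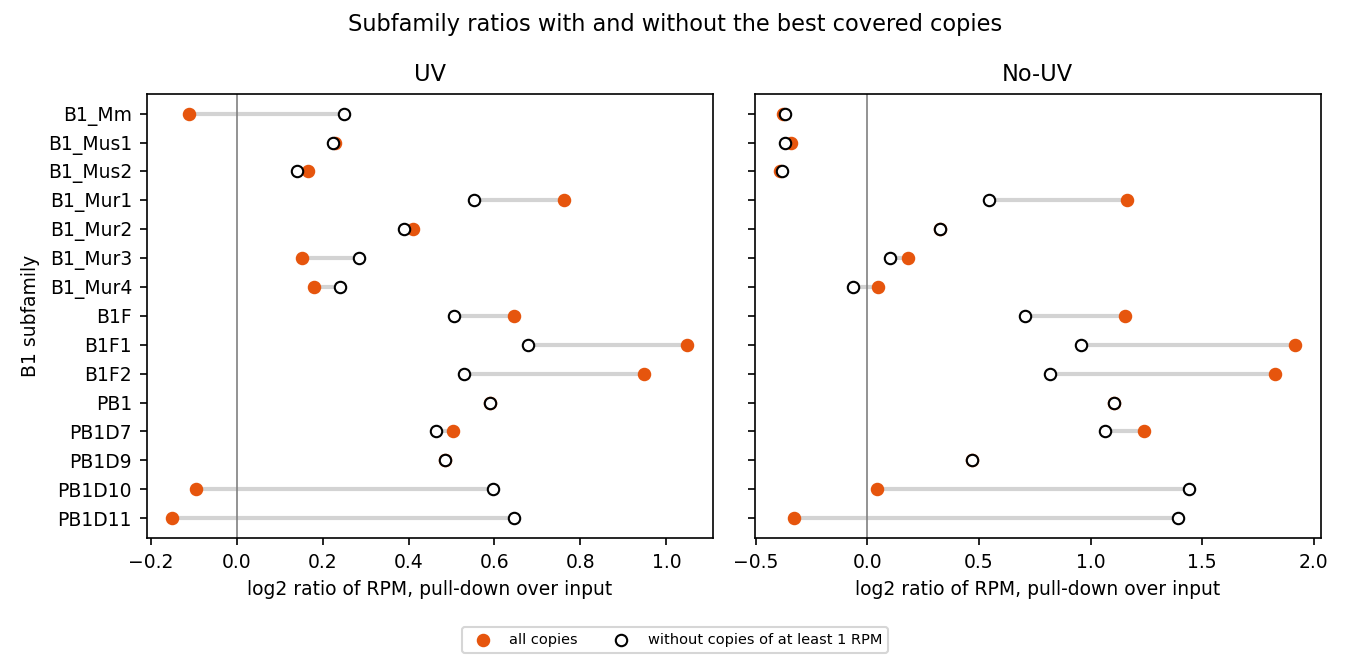
Log2 ratio of RPM, pull-down over input, for each B1 subfamily with all copies (filled) and without its copies of at least 1 RPM in the UV libraries (open), with crosslinking (left) and without (right). PB1D10 and PB1D11 move up, and B1F1, B1F2 and B1_Mur1 move down.

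The subfamily ratios were also taken without the 51 well covered copies, an alternative chosen after seeing the data. These copies were picked by their level in the UV libraries, pull-downs included, and 31 of the 33 higher ones had under 1 RPM in the UV inputs, so that leaving them out lowers the ratios of B1F1, B1F2 and B1_Mur1 by construction. The values are therefore a description with no test. The edgeR log2 ratio was then 0.74 for PB1D11 and 0.69 for PB1D10, against -0.06 and -0.0038 with all copies. It was 0.77 for B1F1, 0.62 for B1F2, 0.60 for B1F and 0.64 for B1_Mur1. Without crosslinking, the log2 ratios of RPM were 1.44 for PB1D10 and 1.39 for PB1D11, against 0.045 and -0.33 with all copies. They were 0.71, 0.96 and 0.82 for B1F, B1F1 and B1F2, against 1.15, 1.92 and 1.83. The no-UV ratios of B1_Mm, B1_Mus1 and B1_Mus2 stayed below 0, at -0.37, -0.37 and -0.38. With crosslinking, their edgeR log2 ratios were 0.34, 0.32 and 0.23, against -0.02, 0.32 and 0.26 with all copies. By name group, PB1 elements then had log2 ratios of 0.55 with and 1.06 without crosslinking, B1F-type elements 0.55 and 0.80, B1_Mur elements 0.38 and 0.23, and B1_Mm and B1_Mus elements 0.20 and -0.38.

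The authors' deposited table of enrichment ratios listed 70 B1 copies, each with reads in all 3 inputs. In the authors' deposited table the median of these was 3.14, 53 of the 70 were above 1, and the range was 0.0457 to 77.7; over its 216085 features the median was 1.37. How the ratio was formed is not given in the sources used here. The highest B1 value in the authors' deposited table, 77.7, belonged to B1F_dup45077, whose levels were 0.0286 and 0.0271 RPM in the UV inputs, 1.00 and 1.52 RPM in the UV pull-downs, and 0.0353 and 0.778 RPM in the no-UV input and pull-down. The next in the authors' deposited table, B1F2_dup5694 at 67.3, had 0.0573 and 0.0814 RPM against 2.54 and 2.58 RPM, and 0.141 against 2.66 RPM. These input levels correspond to 1 or 2 reads a library or less. For the best covered copies, the authors' deposited table gave 0.496 for PB1D10_dup21442, 0.713 for PB1D11_dup6317, 0.257 for B1_Mur3_dup9683 and 2.99 for PB1D10_dup54240. The authors' deposited table gave 1.58 for B1_Mus2_dup65370, for which the fold of RPM here was 0.909 with and 0.419 without crosslinking. Of its 70 copies, 20 were among the 51 tested here.

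7SL RNA, from which B1 descends, went the other way. The features Rn7s1 and Rn7s2, near-identical genes between which reads were split about evenly, together had 880.6 and 751 RPM in the UV inputs, 274 and 394 RPM in the UV pull-downs, 1246 RPM in the no-UV input and 287 RPM in the no-UV pull-down. 7SL RNA was lower in every pull-down than in any input. edgeR gave log2 ratios of -1.20 for Rn7s1 (SE 0.23, adjusted p = 0.0283) and -1.19 for Rn7s2 (SE 0.23, adjusted p = 0.0298). The log2 ratio of RPM without crosslinking was -2.12. The log2 ratio of B1 to 7SL reads was accordingly higher in the pull-downs than in the inputs by 1.60 with crosslinking (exact permutation p = 0.33) and by 2.36 without. Another 7SL feature, Rn7s6, had an edgeR log2 ratio of 0.31 and did not pass the test (adjusted p = 0.533).

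Of the 8 genes of signal recognition particle proteins looked at, 5 features were tested, 0 of which were higher and 1 lower by edgeR (3 at an unadjusted p under 0.05, as for 21.8% of all features), where 5.33% of all features were higher and 2.71% lower. The lower one was the pre-mRNA of Srp72, a subunit that binds 7SL RNA together with Srp68 (log2 ratio -1.05, SE 0.21, adjusted p = 0.0356). Exons of Srp9 and Srp14, whose proteins bind the part of 7SL RNA that B1 retains, summed to 0.304 to 1.12 RPM for Srp14 and 0.987 to 2.66 RPM for Srp9 over the 6 libraries. Among 18 tested subfamilies of other SINE families, 7 were higher and 0 lower (against the same 5.33% and 2.71% of all features), with a median edgeR log2 ratio of 0.65 and a range of -0.17 to 1.58. They included ID_B1, an old element that joins an ID to a B1 part and that the files list under B4, with a log2 ratio of 0.85 (SE 0.16, adjusted p = 0.0261). All 4 tested ID subfamilies were higher, with log2 ratios of 1.26 to 1.48, above each of the 15 B1 subfamilies.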

How the data were processed

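Reads per annotated feature were deposited for each of the 6 libraries. Per the submitters' processing notes, bcl2fastq 2.19, STAR 2.5.2b, bedtools 2.29.0 and the mouse build mm10 were used; their roles, the annotation, strand use and duplicate removal are not given in the sources used here. The deposited expected counts split a read that matched several features of a class into equal fractions, as the values show. The deposited RPM values are those counts per 1000000 reads of the library, unannotated reads included. The authors' deposited enrichment ratio was used as given, with its formula unstated.

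Copies were summed by subfamily and all other features kept. Expected counts were rounded to whole numbers and the 2 UV pull-downs compared with the 2 UV inputs with edgeR 4.0.16 (quasi-likelihood, R 4.3.3), once on the summed table (39069 features) and once on single features (39872), keeping features that averaged 1 RPM or more in the 4 UV libraries. The annotated reads served as library size, unscaled. Reads without annotation (6.99 to 14.4% of a library) stayed out of the test and in the RPM totals. Benjamini-Hochberg adjustment ran over all features tested. The test planned for either counts or normalized values was thus the count test. Log2 ratios of RPM have no pseudocount. The 2 no-UV groups had 1 library each and no test, and their folds carry exact conditional binomial intervals; shares carry Wilson intervals, and 3 reads per library were the floor. The subfamilies, the 10 best covered copies and up to 5 called copies with the highest and the lowest ratio were named by rule. B1, the lists and the rules were chosen with earlier results of these data known. Alternatives were TMM factors, DESeq2 1.42.0, limma 3.58.1, other filters and totals, a replicate block and each library left out. The same-numbered libraries were not taken as pairs, since only 2 pairs exist and the labels tie them to nothing shared. The scripts were tested on simulated data.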

Additional observations from a re-analysis of the deposited data

Results flagged for a closer look

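In 3 subfamilies and 1 named copy, both UV pull-downs differed from both UV inputs in one direction and the no-UV pair went the opposite way. The difference between the conditions was not tested, because the no-UV groups have 1 library each. B1_Mus1 had a log2 ratio of RPM of 0.23 with crosslinking and -0.34 without. B1_Mus2 had 0.17 with crosslinking and -0.39 without. PB1D10 had -0.09 with crosslinking and 0.045 without, and the counting interval of its no-UV fold, 0.970 to 1.10, includes 1. PB1D11_dup14610 had -0.92 with crosslinking and 0.20 without, and its no-UV levels were 5.23 and 6.01 RPM.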

How the results depend on the processing

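The count of 4 higher subfamilies was 7 with TMM factors, 6 without rRNA reads and 6 with limma on log2(RPM + 1). It was 4 by DESeq2 with the filter. It was 3 with all reads as library size, with limma on log2(RPM + 0.1) and without each best covered copy. A replicate block left 2, where B1F and B1_Mur1 were lost (edgeR adjusted p of 0.0705 and 0.0533). With no filter the count was 0 (12 at an unadjusted p under 0.05). No count is given without the copies of at least 1 RPM, since these were picked by their level in the same libraries. With 1 library left out, the edgeR log2 ratios were 1.09 to 1.19 for B1F1 and 0.94 to 1.13 for B1F2. They were 0.67 to 0.80 for B1F and 0.78 to 0.92 for B1_Mur1. The count of 33 higher copies was 4 at a mean of at least 5 RPM, where only 12 copies were tested, and 0 with no filter (1630 at an unadjusted p under 0.05). The other fits kept the filter of 1 RPM over the same 4 UV libraries. Of the 33, 31 had under 1 RPM in the UV inputs and passed this filter through their pull-down reads. A count near 33 in those fits is therefore no check of it. The count of 5 lower copies was 1 with DESeq2, 9 with limma on log2(RPM + 1), 0 with no filter and 2 to 6 with 1 library left out. For the other SINE subfamilies, 7 became 12 with TMM factors, 11 without rRNA reads and 11 at 5 RPM. The count was 11 with limma on log2(RPM + 1) but 7 on log2(RPM + 0.1). It was 6 with the replicate block, 4 without each best covered copy and 0 with no filter (15 unadjusted). PB1D11, at -0.06 and not called, was at 0.74 without its covered copies, which held most of its input reads. The causes of this and of the other changes were not tested. The log2 ratio of the B1 share, 0.29, was 0.24 to 0.41 over its alternatives, 0.29 with the replicate block, and 0.25 to 0.33 with 1 library left out. B1 relative to the other SINE families, -0.18, was -0.05 without the 10 best covered copies of each side, -0.03 against B2 alone, -0.18 with the block and -0.21 to -0.14 with 1 library left out. Same-numbered libraries deviated with a correlation of 0.12 over all features and 0.20 over B1 subfamilies. For the named items, 395 comparisons under alternatives kept their side of the threshold, 40 lost a call, 11 gained one and 1, that of PB1D11, changed sign and passed the threshold. That 1 came from leaving out the copies of at least 1 RPM. These were picked by their level in the same libraries, so it carries no weight as a call. The other counts also include comparisons of this kind. Small values with no call, such as that of PB1D10, also changed sign. Counts below 3 reads in a library give no level, and most B1 copies are below it.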
